A study of Danio rerio with 8 samples.

Results

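The genes described here encode heat shock chaperones, and they were followed in tail muscle of zebrafish labelled runx2b+/+ or runx2b-/-. The 10 genes are hsp90aa1.1, hsp90aa1.2, hsp90ab1, hspa8, hspa4a, dnajb1b, bag3, hspb1, hspd1 and hspe1. They were taken by symbol from a read count table of 25279 gene symbols, where all 10 were present, and all 10 passed the count filter of the test. The table holds 3 bulk RNA libraries of wild type (runx2b+/+) fish and 3 of runx2b-/- fish, all at 60 days post fertilization. Each library was made from tail muscle that still contained its intermuscular bones, the thin bones of the connective sheets between muscle segments. Both groups carry the sp7/eGFP transgene of the line Tg (sp7/eGFP), in which the promoter of the osteoblast gene sp7 drives a green fluorescent protein. The labels give neither the sex of the fish nor the lesion of the mutant allele. Nor do they tell whether separate fish went into the libraries of a group, so the p-values refer to the spread between libraries, and that spread may be technical.

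Chaperones bind unfolded or partly folded proteins and keep them from clumping while they fold. HSP70 proteins take up new or damaged chains with the help of J-domain partners and hand some of them on to HSP90, which finishes the folding of a narrower set of clients. In zebrafish skeletal muscle the HSP90 protein of hsp90aa1.1 works with the co-chaperone Unc45b to fold the myosin motor, and fish that lack either one fail to build ordered thick filaments. Many genes of the family are also raised by heat and other protein-damaging stress through the transcription factor Hsf1. The name cytosolic does not cover all 10 genes, since hspd1 and hspe1 encode the chaperonin of the mitochondrial matrix.

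Libraries held between 17280098 and 20482003 counts. Levels are given as CPM, the count relative to a library size that was scaled for composition, and 3 counts equalled 0.134 to 0.181 CPM. The first principal component (44% of the variance) set the wild type libraries (-43 to -15.4) apart from the mutant libraries (25.1 to 37.7). The 3 mutant libraries lay close together on the first 2 principal components, whereas the wild type libraries were spread along the second from 35.1 (library 1) to -45.6 (library 3). Fast muscle markers summed to between 295679 and 436291 CPM in wild type and between 246741 and 408120 CPM in mutant, with all 12 present in the table. The 10 bone markers summed to 44.3 to 66.8 CPM in wild type and 10.7 to 18.2 CPM in mutant. Among them sp7 had 4, 2 and 1 counts in wild type libraries 1 to 3 and 0 in each mutant library, too few to be tested. The 13 oocyte and yolk markers summed to 33.1 to 44.0 CPM in wild type and 0.218 to 1.39 CPM in mutant, and 8 of 10 red blood cell markers in the table summed to 1226 to 1416 and 1672 to 1908 CPM. The 12 neutrophil and macrophage markers summed to 125 to 187 CPM in wild type and 109 to 130 CPM in mutant, and the 7 endothelium markers to 72.9 to 81.5 and 102 to 122 CPM. The 7 slow muscle markers in the table (of 8) summed to 6376 to 8716 and 7457 to 7732 CPM, and the 5 epidermis markers (of 6) to 52.7 to 175 and 72.5 to 94.4 CPM. Of these lists the bone, yolk, red blood cell and endothelium sums did not overlap between the groups. In the other lists some single genes did not overlap either. Lower in mutant were 4 of 9 tested neutrophil and macrophage markers and 1 of 3 tested epidermis markers. Of 12 fast muscle markers 2 were lower and 1 higher, and of 7 slow muscle markers 1 was lower and 1 higher. Over all 14107 tested genes 1656 were lower and 1812 higher without overlap. The part of these lists in the chaperone results was not tested. As the labels give no sex, any difference in sex between the groups could not be told apart from that in genotype. In bulk tissue, fewer cells of a type and less RNA per cell cannot be told apart.

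In mutant tail muscle the transcripts of the HSP90 alpha genes were lower, and so, by smaller folds, were those of hspb1 and hspa4a. Of the 10 genes 4 fell (hsp90aa1.1, hsp90aa1.2, hspa4a and hspb1) and none rose, in the quasi-likelihood test of edgeR, with calls at an adjusted p (Benjamini-Hochberg) under 0.05. Over all 14107 tested genes the same test called 3.37%, of which 1.62% of tested genes were lower and 1.76% higher. All 10 log2 fold changes were below 0, with a median of -0.67, against 50.8% of all tested genes and a median of -0.01. An unadjusted p under 0.05 was reached by 8 of the 10 genes and by 19.4% of all tested genes. The 3 mutant libraries lay below the 3 wild type libraries for 8 of the 10 genes, which was the case for 11.7% of tested genes. The 10 genes were chosen with earlier results of these data known, so these shares are a description and were not tested as a set. The models of hsp90aa1.1 and hsp90aa1.2 share exons, so their calls are not separate. When mutant library 1, 2 or 3 was left out, edgeR called 0 of the 10 genes, with 5, 5 and 7 at an unadjusted p under 0.05. It called 2 when wild type library 2 was left out and 5 when wild type library 3 was. Over all tested genes those settings called 0.903%, 1.04% and 0.776% (without a mutant library), 1% and 8.25%. With all 6 libraries DESeq2 called 4 of the 10, where it called 4.78% of all tested genes, and limma voom called 3, against 2.93%.

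**Figure D1:**
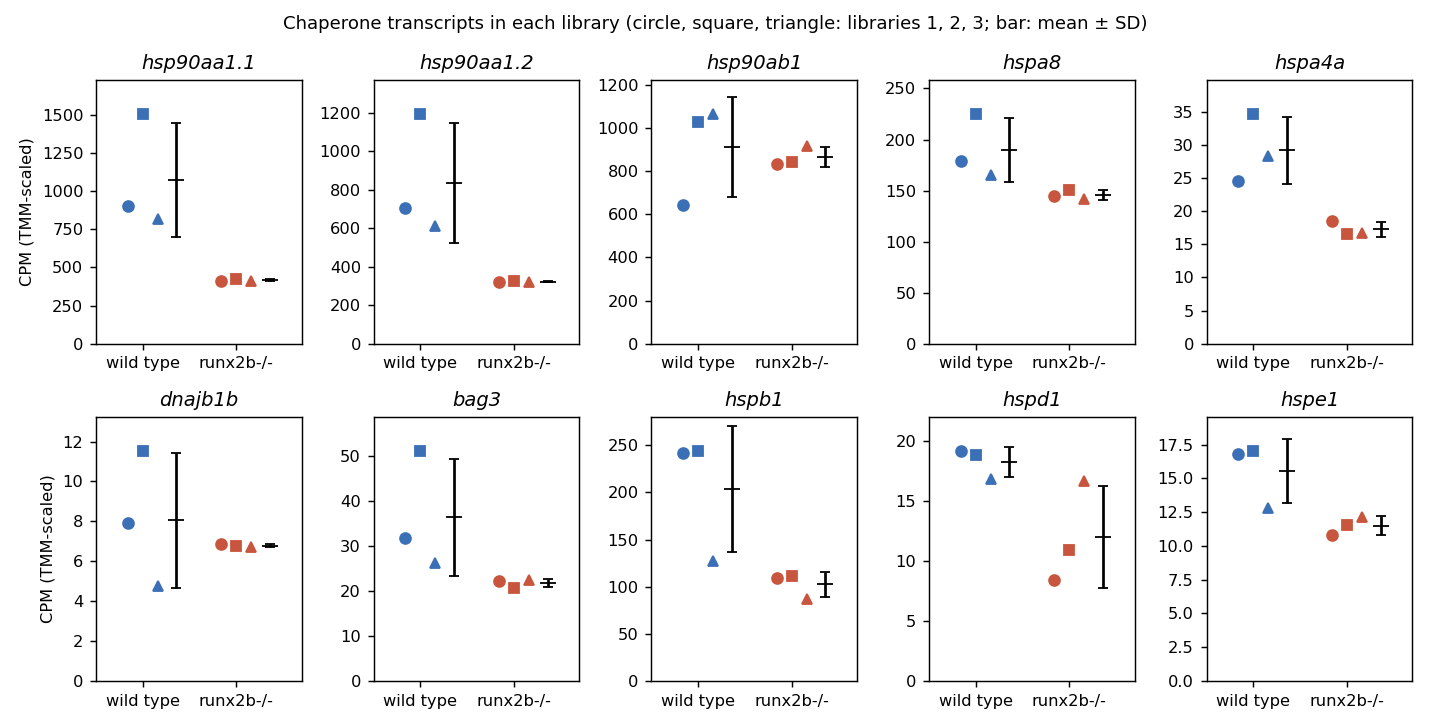
TMM-scaled CPM (y axis, from 0) of the 10 chaperone genes in each of 3 wild type and 3 runx2b-/- libraries; the bar beside each group is its mean ± SD. The mutant libraries lie below wild type for 8 genes and within the wild type range for hsp90ab1 and dnajb1b, and those of hspd1 are spread from 8.39 to 16.7 CPM.

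The HSP90 alpha gene hsp90aa1.1, the muscle chaperone of myosin, lies on chromosome 20 (54192871 to 54222597, minus strand, as the table gives it). It stood at 902, 1508 and 817 CPM in wild type libraries 1 to 3 and at 413, 422 and 414 CPM in mutant libraries 1 to 3. Every mutant library was below every wild type library, and the mutant libraries differed among themselves by only a few CPM. The gene fell 2.58-fold, from 1076 ± 376 to 417 ± 5.09 CPM (mean ± SD, n = 3 each), a log2 fold change of -1.37 (SE 0.22, edgeR adjusted p = 0.00672).

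Its tandem neighbour hsp90aa1.2, a second HSP90 alpha gene, lies on the same strand (54177625 to 54206912). It had 703, 1192 and 611 CPM in wild type and 319, 327 and 320 CPM in mutant, the same order of libraries as hsp90aa1.1. It fell 2.59-fold (log2 fold change -1.37, SE 0.23, edgeR adjusted p = 0.00882). The models of the pair overlap: 1452 exon bases are shared, which is 51.8% of the exon length of hsp90aa1.1 and 30.3% of that of hsp90aa1.2. How the count divided reads of the shared stretch is not given in the sources used here, so the split between the pair is uncertain. The ratio of hsp90aa1.1 to hsp90aa1.2 counts was 1.28, 1.26 and 1.34 in wild type and 1.29, 1.29 and 1.29 in mutant, a nearly constant ratio. Because of the shared exons it does not show that the genes changed together.

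The sum of the pair does not depend on how reads were divided between them, provided each read was counted once. Reads counted for both genes, or dropped as ambiguous, would alter it and its ratio to hsp90ab1. The sum came to 35923, 57497 and 25031 counts in wild type and 15714, 12404 and 13460 in mutant, or 1605, 2700 and 1429 CPM against 732, 749 and 734 CPM. Fitted as 1 gene within the whole table, the sum fell 2.59-fold, a log2 fold change of -1.37 (SE 0.22, edgeR adjusted p = 0.00736). Without wild type library 2, the highest, the log2 fold change of the sum was -1.05 (SE 0.18, edgeR adjusted p = 0.0227). No mutant library came near the lowest wild type library. The call of the sum ended without mutant library 1, 2 or 3 (edgeR adjusted p of 0.0599, 0.0557 and 0.0660), with log2 fold changes of -1.36, -1.37 and -1.36. The calls of hsp90aa1.1 (adjusted p up to 0.0600) and hsp90aa1.2 (up to 0.0716) also ended without any 1 mutant library.

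The HSP90 beta gene hsp90ab1 encodes the constitutive cytosolic HSP90 of most cells and lies on chromosome 20 (51384538 to 51398620, plus strand). It had 646, 1027 and 1066 CPM in wild type and 836, 844 and 918 CPM in mutant. The mutant libraries fell inside the wild type range. The means were 913 ± 232 and 866 ± 45.0 CPM (log2 fold change -0.08 with an SE of 0.19, edgeR adjusted p = 0.874), and the sign turned when wild type library 2 (0.0028) or 3 (0.06) was left out. Within each library the alpha sum was 2.49, 2.63 and 1.34 times the hsp90ab1 count in wild type and 0.876, 0.888 and 0.80 times in mutant. Counted alpha reads thus outnumbered counted beta reads in all 3 wild type libraries and in no mutant library. This ratio was not tested: with 3 libraries against 3, an exact two-sided permutation test cannot go below a p of 0.1.

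**Figure D2:**
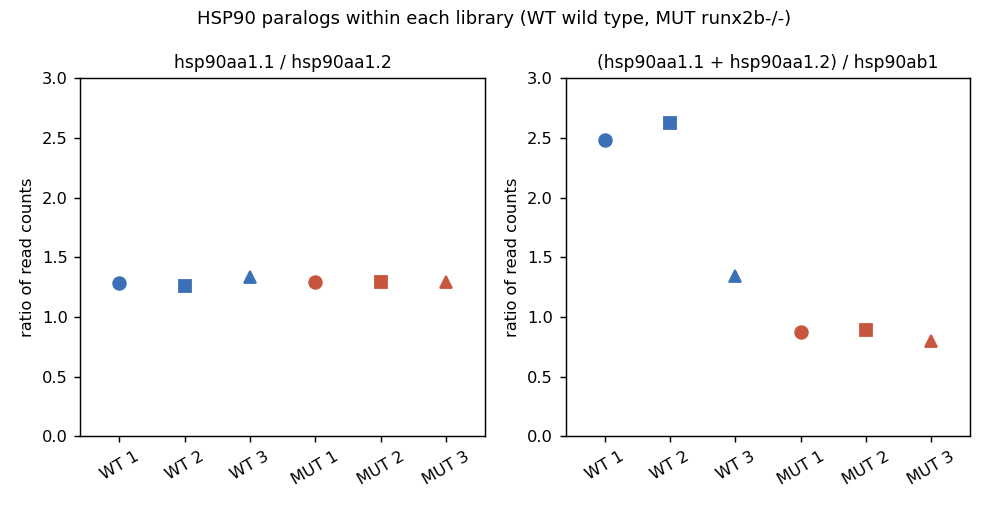
Ratio of read counts (y axis, from 0) of hsp90aa1.1 to hsp90aa1.2, left, and of their sum to hsp90ab1, right, in each of the 6 libraries. The left ratio stays between 1.26 and 1.34, and the right one is 1.34 to 2.63 in wild type and 0.80 to 0.888 in mutant.

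All 3 HSP90 genes share chromosome 20 with runx2b, hsp90ab1 at 7.19 Mb and the alpha pair at 9.98 Mb or more from it. Of 554 tested genes on that chromosome 16 were called, or 2.89%, with 11 higher and 5 lower. That share is near the 3.37% over all tested genes. It covers the whole chromosome and includes hsp90aa1.1 and hsp90aa1.2, which share exons. The stretch near runx2b was not examined apart, and a part of linkage to runx2b was not tested.

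The HSP70 gene hspa8 encodes the constitutive cytosolic HSP70 and lies on chromosome 10 (29963106 to 29967488, plus strand). It had 178, 225 and 165 CPM in wild type and 144, 151 and 141 CPM in mutant. The groups did not overlap, but the gap between them was narrow. The means were 190 ± 31.2 and 145 ± 4.88 CPM, a log2 fold change of -0.38 (SE 0.16) that did not pass the test (edgeR adjusted p = 0.217).

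The gene hspa4a encodes a large relative of HSP70 of the HSP110 type, a class that loads fresh nucleotide onto HSP70, and lies on chromosome 21 (43138888 to 43176216, minus strand). It had 24.7, 34.7 and 28.4 CPM in wild type and 18.6, 16.6 and 16.7 CPM in mutant. No mutant library reached the lowest wild type value. The gene fell 1.69-fold (log2 fold change -0.76, SE 0.17, edgeR adjusted p = 0.0292). The exons of hspa4a share 362 bases with those of zcchc10 on the other strand, a gene of 11 to 32 counts where hspa4a itself had 274 to 739. The call ended without wild type library 2 (adjusted p = 0.136), without mutant library 1, 2 or 3 (0.101, 0.124 and 0.156), under scaling by library size alone (0.0723) and in the replicate block fit (0.0641).

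Of the HSP70 partners, dnajb1b encodes a J-domain protein that starts the HSP70 cycle and lies on chromosome 1 (55068227 to 55072557, minus strand). It had 7.91, 11.5 and 4.74 CPM in wild type and 6.85, 6.77 and 6.71 CPM in mutant. Wild type libraries lay on both sides of the mutant ones. The difference was -0.25 (log2; SE 0.27; edgeR adjusted p = 0.657), and it was 0.08 without wild type library 2. Its exons share 834 bases with adgre10 on the other strand, which had 8 to 28 counts where dnajb1b had 83 to 245.

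The gene bag3 encodes an HSP70 partner that, with small heat shock proteins, directs damaged muscle proteins to autophagy, and lies on chromosome 13 (25356158 to 25368211, plus strand). It had 31.8, 51.1 and 26.3 CPM in wild type and 22.3, 20.7 and 22.4 CPM in mutant. The groups did not overlap, with wild type library 3 close above the mutant libraries. The means were 36.4 ± 13.0 and 21.8 ± 0.954 CPM (log2 fold change -0.74, SE 0.22), and the gene was not called (edgeR adjusted p = 0.0945). It was called when wild type library 3 was left out (adjusted p = 0.0167) and without a count filter (0.00732).

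The small heat shock protein gene hspb1, whose product holds unfolded proteins and binds to the contractile apparatus of stressed muscle, lies on chromosome 5 (3238284 to 3255083, minus strand). It had 242, 243 and 127 CPM in wild type and 109, 111 and 87.3 CPM in mutant. Wild type library 3 lay much nearer to the mutant libraries than to the other wild type libraries. The gene fell 1.99-fold, from 204 ± 66.8 to 103 ± 13.3 CPM (log2 fold change -0.99, SE 0.24, edgeR adjusted p = 0.0479). This call was at the edge of the threshold and ended in 10 of 15 alternatives, among them each removal of a single library (adjusted p of 0.0960 to 0.213) other than wild type library 3, without which it was 0.00139. It also ended with library size only (0.108), upper-quartile scaling (0.0518), the stricter filter (0.0631), limma voom (0.0723) and the length offset (0.0558).

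The mitochondrial chaperonin genes hspd1 (barrel subunit) and hspe1 (lid subunit) lie head to head on chromosome 9, hspd1 from 32475859 to 32490037 on the minus strand and hspe1 from 32490271 to 32495119 on the plus strand. Only 233 bases separate the models. The hspd1 gene had 19.1, 18.8 and 16.8 CPM in wild type and 8.39, 10.9 and 16.7 CPM in mutant. Mutant library 3 came up to the wild type level, so the groups met almost without a gap. Its log2 fold change of -0.61 (SE 0.22) was not called by edgeR (adjusted p = 0.160), but was called without a count filter (adjusted p = 0.0439). The hspe1 gene had 16.8, 17 and 12.8 CPM in wild type and 10.8, 11.5 and 12.2 CPM in mutant, without overlap. Its log2 fold change was -0.44 (SE 0.17, adjusted p = 0.176). Neither chaperonin subunit passed the test.

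**Figure D3:**
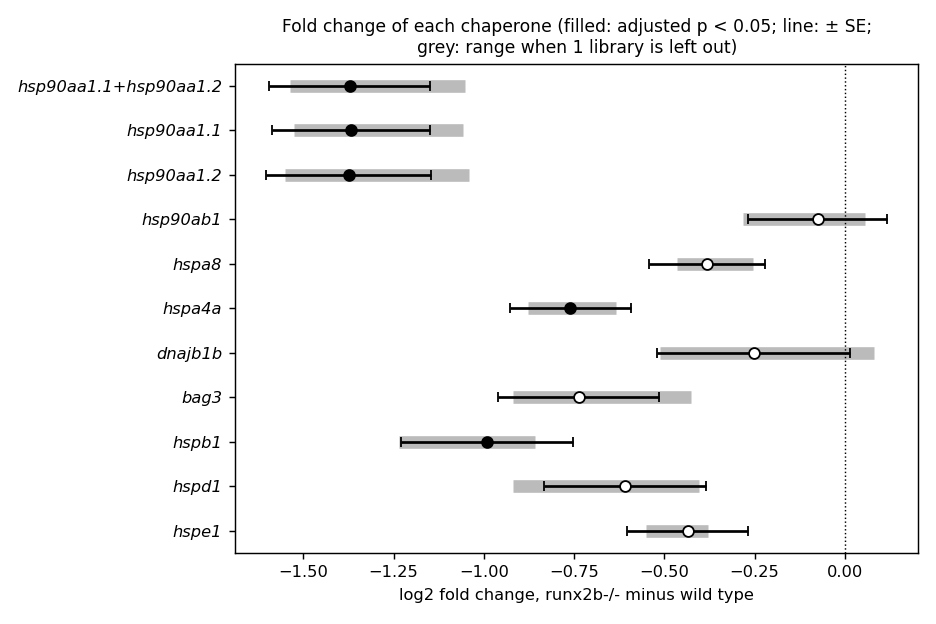
Log2 fold change (x axis, runx2b-/- minus wild type) of each chaperone gene and of the summed HSP90 alpha pair, with its SE as a line; filled points have an adjusted p under 0.05 and the grey bar spans the values when 1 library is left out. The alpha pair lies at -1.37, hspb1 at -0.99 and hspa4a at -0.76, and hsp90ab1 and dnajb1b have grey bars that cross 0.

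Summed over the 10 genes, wild type libraries 1 to 3 held 2771, 4328 and 2876 CPM and mutant libraries 1889, 1922 and 1955 CPM. The wild type mean was 1.73 times the mutant mean. HSP90 genes made up 84.9% of this sum in wild type and 83.5% in mutant. The sum of the 10 genes and these shares carry the uncertainty of the exons shared by the alpha pair. Without the alpha pair the remaining 8 genes summed to 1166, 1628 and 1447 CPM in wild type and 1157, 1172 and 1221 CPM in mutant, and the groups overlapped. Most of this sum was hsp90ab1, with a mean of 913 of 1414 CPM in wild type and 866 of 1183 CPM in mutant. Taken singly, only hsp90ab1 and dnajb1b of these 8 genes overlapped between the groups. Over all tested genes 11.7% lay lower in mutant without overlap. The gap was narrow for hspd1 (lowest wild type 16.8, highest mutant 16.7 CPM) and hspe1 (12.8 and 12.2 CPM). The 10 genes took 0.253% to 0.450% of all counts in wild type libraries and 0.175% to 0.212% in mutant libraries.

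The spread within wild type was wider than within mutant for 9 of the 10 genes, hspd1 being the exception. The coefficient of variation (SD over mean, n = 3) of hsp90aa1.1 was 35.0% in wild type and 1.22% in mutant, and that of dnajb1b was 42.1% and 1.04%. The median over the 10 genes was 29.1% in wild type and 4.78% in mutant. Over the 5693 tested genes with a mean of at least 5 CPM it was 15.2% and 11.3%, and wild type was the more variable group for 63.9% of them. Wild type library 2 held the highest wild type value for 8 of the 10 genes, as it did for 26.5% of those tested genes. Wild type library 3 was the lowest wild type library for 8 of the 10, against 30.8% of those tested genes. Of the marker lists, the 9 tested neutrophil and macrophage markers were all highest in wild type library 2, and 10 of 12 fast muscle markers were highest in library 3. Coefficients from 3 libraries are imprecise, and neither these shares nor the part of those markers in them was tested.

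**Figure D4:**
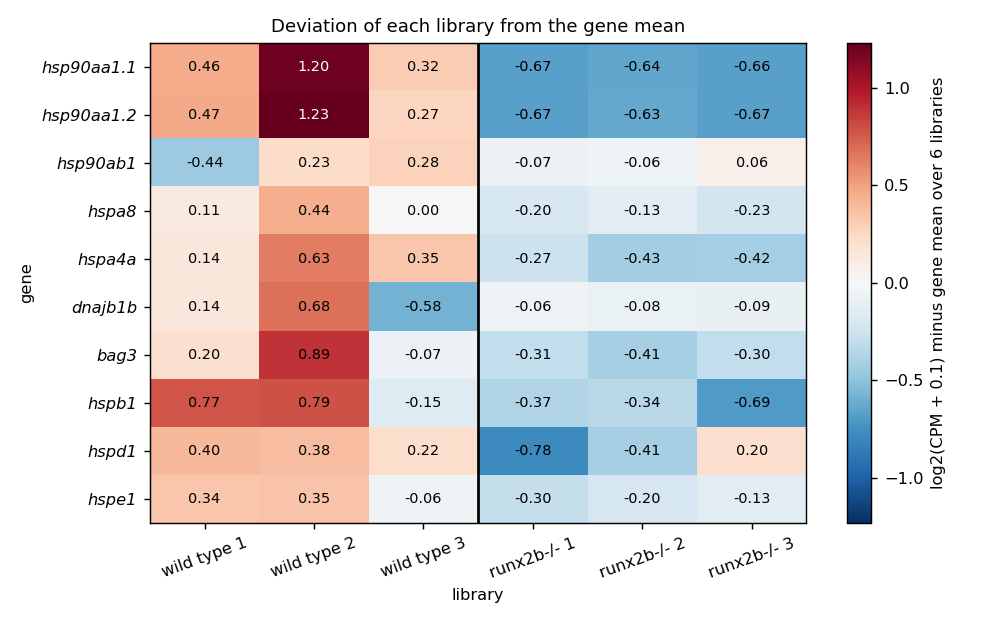
Heat map of log2(CPM + 0.1) minus the mean of the gene over 6 libraries, with genes as rows and libraries as columns. Wild type library 2 carries the highest values of the alpha pair (1.23 for hsp90aa1.2), and the mutant columns of the pair lie between -0.67 and -0.63.

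Per length of gene model, the order of levels in wild type was led by hsp90aa1.1 at 384 ± 134 CPM per kilobase, followed by hsp90ab1 (258 ± 65.7), hsp90aa1.2 (174 ± 65.1), hspb1 (123 ± 40.2) and hspa8 (73.8 ± 12.1). Each of these 5 overlapped its neighbour in the order. A gap separated them from bag3 at 16.3 ± 5.81 CPM per kilobase, and another separated bag3 from hspd1 (6.36 ± 0.432), hspe1 (5.83 ± 0.894), hspa4a (4.30 ± 0.746) and dnajb1b (3.80 ± 1.6), which again overlapped their neighbours. In mutant the lead passed to hsp90ab1 at 245 ± 12.7 CPM per kilobase, and its libraries did not overlap those of hsp90aa1.1 at 149 ± 1.82. Below them hsp90aa1.2 (67.2 ± 0.886), hspb1 (61.7 ± 7.99) and hspa8 (56.6 ± 1.90) overlapped in turn. The per-length values of the alpha pair carry the uncertainty of the shared exons.

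Beyond the 10 genes, 9 lists of other chaperones and co-chaperones held 119 genes, of which 100 were tested. Of these 4 fell and 1 rose, or 5 of 100 against the 3.37% over all tested genes. The median log2 fold change of the 100 was -0.10, and 62 were below 0. Without wild type library 3, 15 were called, where 8.25% of all tested genes were. Without wild type library 2 or any 1 mutant library edgeR called 0, against 0.776% to 1.04% of all tested genes, with 14 to 18 at an unadjusted p under 0.05, against 13.7% to 16.4%. With all libraries 21 of the 100 had an unadjusted p under 0.05 in edgeR, near the 19.4% of all tested genes. These 21 were spread unevenly. They included 7 of 16 HSP90 co-chaperones and 4 of 8 other small heat shock protein genes, but 2 of 14 TRiC and prefoldin genes. The spread between lists was not tested. Of the 100 the number called was 9 with DESeq2 and 3 with voom.

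Among 16 HSP90 co-chaperones 2 fell and none rose (median log2 fold change -0.31). An unadjusted p under 0.05 in edgeR was reached by 7 of the 16, against 19.4% of all tested genes. Among these 7, cdc37l1 was higher in mutant (log2 fold change 0.56, SE 0.26). The ptges3b gene encodes a p23 protein that stabilizes the closed form of HSP90, and it had 11.8, 12.4 and 10.6 CPM in wild type and 5.83, 7.31 and 7.15 CPM in mutant (log2 fold change -0.78, SE 0.17, edgeR adjusted p = 0.0272). The ahsa1b gene encodes an activator of the HSP90 ATPase, with 25.3, 27.6 and 15.2 CPM in wild type and 12.8, 11.7 and 12.9 CPM in mutant (log2 fold change -0.87, SE 0.21, adjusted p = 0.0441). For both genes every mutant library was below every wild type library. Both calls ended without wild type library 2 or any 1 mutant library (adjusted p of 0.0845 to 0.178), with library size only (0.0609 for ptges3b and 0.0722 for ahsa1b), the replicate block (0.0579 and 0.0793) and the length offset (0.0583 and 0.0624). That of ahsa1b also ended without wild type library 1 (0.0640), with the stricter filter (0.0570) and with voom (0.0651).

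None of 6 myosin chaperones was called by edgeR, with 1 at an unadjusted p under 0.05, 1 called by DESeq2 and 0 by voom. The most abundant over the 6 libraries were the methyltransferase genes of the myosin folding machinery, smyd1a (1009 ± 243 CPM in wild type and 1168 ± 141 in mutant; log2 fold change 0.21, SE 0.19) and smyd1b (244 ± 52.2 and 191 ± 12.3 CPM; -0.35, SE 0.17). Named here after its values were seen, unc45b encodes the myosin co-chaperone that partners HSP90 alpha. It had 50.2, 112 and 54.4 CPM in wild type and 30.7, 34.1 and 24.1 CPM in mutant. The groups did not overlap, and wild type library 2 was again the highest. Its log2 fold change was -1.29 (SE 0.31), which missed the threshold in edgeR (adjusted p = 0.0660). It passed with DESeq2 (adjusted p = 0.000395), without a count filter (0.0446), with the replicate block (0.0191) and without wild type library 1 (0.0370) or 3 (0.0216), and over all alternatives the adjusted p ran from 0.000395 to 0.237.

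None of 10 other tested HSP70 and HSP110 genes was called by edgeR, where 1 had an unadjusted p under 0.05. The number called was 1 with DESeq2 and 0 with voom, and their median log2 fold change was -0.50. The most abundant of them over the 6 libraries was hspa4b, a paralog of hspa4a, at 50.1 ± 6.52 CPM in wild type and 59.0 ± 9.63 CPM in mutant (log2 fold change 0.24, SE 0.17). The stress-inducible HSP70 gene hsp70.2 had 18.3, 25.7 and 3.65 CPM in wild type and 1.49, 1.39 and 6.93 CPM in mutant. Wild type library 3 lay below mutant library 3, so the groups overlapped (log2 fold change -2.29, SE 1.06, edgeR adjusted p = 0.352). The log2 fold change was -3.45 without mutant library 3 and -1.77 without wild type library 2, and the adjusted p over all alternatives ran from 0.162 to 0.607. The related hsp70l, also named after its values were seen, had 86, 122 and 23 counts in wild type and 5, 6 and 16 in mutant, a log2 fold change of -2.91 (SE 0.65, adjusted p = 0.0596). It was called by DESeq2 (adjusted p = 8.4e-06) and without wild type library 3 (edgeR adjusted p = 0.00064), and over all alternatives the adjusted p ran from 8.4e-06 to 0.224. Without mutant library 3 its log2 fold change was -3.61. The inducible HSP70 genes are close copies of each other, so the split of reads among them is uncertain.

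Of 8 other small heat shock protein genes 4 had an unadjusted p under 0.05 in edgeR, against 19.4% of all tested genes. Among these 4, hspb3 was higher in mutant (log2 fold change 0.63, SE 0.21). Only 1 of the 8 was called, and it fell. It was hspb2, whose counterpart in mammals is a muscle protein, at 17.1 ± 2.27 CPM in wild type and 10.0 ± 1.61 CPM in mutant (log2 fold change -0.78, SE 0.18, edgeR adjusted p = 0.0364). Of 13 exchange factors and partners of HSP70 1 fell, hspbp1, an HSP70 nucleotide exchange factor, at 2.51 ± 0.644 and 1.1 ± 0.206 CPM (log2 fold change -1.21, SE 0.30, adjusted p = 0.0462). Both calls ended without wild type library 2 or any 1 mutant library (adjusted p of 0.0972 to 0.199), with library size only (0.0581 for hspb2 and 0.0590 for hspbp1), the replicate block (0.0605 and 0.0710) and the length offset (0.0782 and 0.0561). That of hspbp1 also ended without wild type library 1 (0.0781), with upper-quartile scaling (0.0504) and with voom (0.0616).

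None of 18 other J-domain genes was called by edgeR, with 4 at an unadjusted p under 0.05, 2 called by DESeq2 and 0 by voom. The most abundant over the 6 libraries, dnaja2 (log2 fold change -0.11, SE 0.16) and dnajc8 (-0.08, SE 0.16) overlapped between the groups. None of 14 genes of the TRiC chaperonin, which folds actin and tubulin, and its partner prefoldin was called by edgeR, DESeq2 or voom, with 2 at an unadjusted p under 0.05 in edgeR. The TRiC subunit genes cct6a (-0.05, SE 0.18) and cct3 (0.10, SE 0.18) were the most abundant by their mean over the 6 libraries. The heat shock transcription factor genes hsf1 (1.83 ± 0.406 CPM in wild type and 2.30 ± 0.283 in mutant; log2 fold change 0.33, SE 0.26) and hsf2 (0.19, SE 0.33) were not called by edgeR, DESeq2 or voom, with 0 at an unadjusted p under 0.05.

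Of 13 other mitochondrial chaperone and protease genes 1 rose, with a median log2 fold change of 0.00. It was clpb, whose product dissolves protein aggregates in mitochondria of human cells. It had 15, 19.8 and 24.9 CPM in wild type and 36, 39.2 and 42.1 CPM in mutant, so every mutant library was above every wild type library. The rise was 1.97-fold (log2 fold change 0.97 with an SE of 0.19, edgeR adjusted p = 0.0164). The call ended without wild type library 2 (adjusted p = 0.0878) or mutant library 1, 2 or 3 (0.0680, 0.0763 and 0.104).

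**Figure D5:**
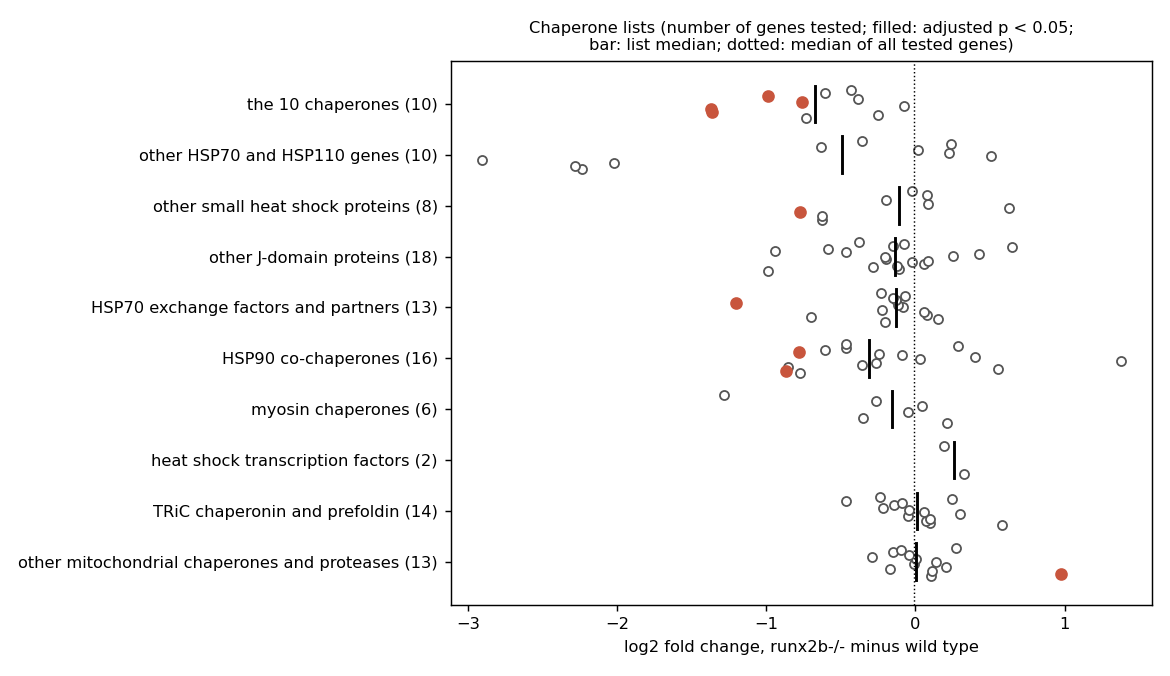
Log2 fold change (x axis, runx2b-/- minus wild type) of each tested gene of the 10 chaperones and 9 further lists; filled points have an adjusted p under 0.05, black bars are list medians and the dotted line is the median of all tested genes. The 10 chaperones have a median of -0.67 and the HSP90 co-chaperones of -0.31, and the TRiC and mitochondrial lists lie around 0.

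The 17 tested immediate early genes, of a class that can respond within minutes to handling and other stimuli, are given beside these values. The part of handling was not tested. None was called by edgeR, DESeq2 or voom, and 1 had an unadjusted p under 0.05 in edgeR. The summed level of the 21 genes of this list in the table, tested or not, was 92.3 to 512 CPM in wild type and 199 to 338 CPM in mutant, so the groups overlapped. The most abundant by their mean over the 6 libraries were cebpd and nr4a1. The cebpd gene had 15.9, 98.8 and 349 CPM in wild type and 185, 132 and 87.1 CPM in mutant. A large part of the spread of the summed level came from cebpd. The nr4a1 gene had 6.79, 11.2 and 28.3 CPM in wild type and 61.6, 39.4 and 29.7 CPM in mutant (15.4 ± 11.3 and 43.6 ± 16.3 CPM). Its mutant libraries lay above all wild type libraries, as for 1812 of the 14107 tested genes. Its log2 fold change was 1.51 (SE 0.62, edgeR adjusted p = 0.285). It was called without wild type library 3 (log2 fold change 2.29, adjusted p = 0.00567). Wild type library 3 was the highest wild type library for both genes, as for 13 of the 17, and library 2 for the other 4.

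The tested genes outside the lists whose library profile was nearest to that of hsp90aa1.1 were tnfaip2b, tnfrsf1a and the translation initiation factor gene eif3hb. The measure was the root mean square difference of centred log2(CPM + 0.1) over the 6 libraries, with 3 clone-named genes passed over, and it was 0.165, 0.194 and 0.211. Between hsp90aa1.1 and hsp90aa1.2, which share exons, it was 0.0241, between hsp90aa1.1 and bag3 0.324, and between hsp90aa1.1 and hsp90ab1 0.705. The tumour necrosis factor receptor gene tnfrsf1a had 6.92, 8.50 and 6.11 CPM in wild type and 3.17, 3.44 and 2.56 CPM in mutant. These genes were picked for their likeness in these libraries, so their own differences are a description.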

How the data were processed

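Bulk RNA of zebrafish tail muscle with its intermuscular bones was extracted with Trizol and made into libraries with a TruSeq Stranded mRNA kit, per the labels' protocols. The authors deposited whole-number read counts per gene for 6 libraries, not normalized and not pooled, with the position, strand and exon length of each gene model, per the file headers. The aligner, the counter, its strand setting and its handling of shared reads: not given in the sources used here. Cell Ranger and GRCz11 appear in the submitters' processing notes with no link to this table, so positions are printed as the table gives them. Close paralogs, overlapping models and antisense partners may share reads. The 2 single-cell samples were not analysed here, nor were promoter and protein sequences.

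Genotypes were compared with edgeR 4.0.16 in R 4.3.3 (filterByExpr defaults, that is 10 counts as minimum and 15 in total; TMM scaling; robust quasi-likelihood test; no covariate), with Benjamini-Hochberg adjustment over 14107 genes and a threshold of 0.05. The hsp90aa1 pair was also fitted as 1 summed row of the whole table. Log2 fold changes give mutant relative to wild type, with SE as their size over the square root of F. CPM uses the TMM-scaled library size. Alternatives were other scalings, no filter, at least 50 counts in 3 libraries, DESeq2 1.42.0, limma 3.58.1 (voom), a replicate block, an offset for gene length and leaving out each library. The test was checked on simulated counts. Within a group, libraries differed beyond sampling noise (chi-square over degrees of freedom of 17.1 to 37.5 between wild type libraries and 16.7 to 60.7 between mutant libraries). Names from the other chaperone lists and the immediate early list were taken by rule: up to 4 called genes of each list, else the 2 most abundant. Outside this rule, unc45b, hsp70l, egr1, btg2 and fkbp5 were named after their values were seen. The genes tnfaip2b, tnfrsf1a and eif3hb were named for their likeness to hsp90aa1.1. The genes and lists were chosen with earlier results of these data known.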

Additional observations from a re-analysis of the deposited data

How the results depend on the processing

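The count of called genes overall was 476, but 1161 without a count filter and 304 with at least 50 counts in 3 libraries, and it ran from 115 to 1225 when 1 library was left out. Of the 10 chaperones 4 were called, 6 without a filter, 2 with library size only and 0 to 5 with 1 library left out. Over all tested genes those settings called 3.37%, 4.59%, 2.56% and 0.776% to 8.25%. The number of the 10 was 3 with upper-quartile scaling (3.15% of all tested genes), the stricter filter (3.68%), voom (2.93%), the replicate block (2.67%) or the length offset (3.08%). The same shares stand beside the counts of other chaperones that follow, with 4.78% for DESeq2. Of the other chaperones 5 were called, 1 with library size only, 11 without a filter, 3 with the stricter filter, 9 with DESeq2, 3 with voom, 2 with the replicate block, 2 with the length offset and 0 to 15 with 1 library left out. The hsp90aa1.1 plus hsp90aa1.2 sum stayed below 0 in all 15 alternatives and was called in 12, with a log2 fold change of -1.54 to -1.05 when 1 library was left out. The labels do not say that replicate numbers pair the libraries. Deviations of same-numbered libraries correlated at -0.055, 0.035 and 0.031, and these few correlations cannot decide whether the libraries are paired. With the replicate block 377 genes, 3 of the 10 chaperones and the sum (-1.31, edgeR adjusted p = 0.00941) were called. Signs turned for the following log2 fold changes, given as their range when 1 library was left out: hsp90ab1 (-0.2814 to 0.0555; 0.0028 without wild type library 2), dnajb1b (-0.5114 to 0.08), dnajc8 (-0.1593 to 0.0245; 0.041 with the length offset), cct3 (-0.0494 to 0.2278; -0.017 without wild type library 1), cct6a (-0.1858 to 0.1066; 0.0126 and 0.0086 without mutant library 1 and 2), hsf2 (-0.1085 to 0.4875), cebpd (-0.747 to 1.2341; 0.0377 without mutant library 3, 0.6557 with voom, 0.5695 with the replicate block), egr1 (-1.1873 to 0.2138) and btg2 (-1.2796 to 0.2072). The causes were not tested, and a filter or a removal also changes the number of genes or libraries in the fit. Library size only moved the median of all genes by -0.034. Levels were low for genes such as hspbp1, at 0.932 to 2.90 CPM, and the part of depth in their calls was not tested.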

Other observations

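Which wild type library was highest differed between gene lists. It was library 2, the highest for the HSP90 alpha pair, for 7 of 10 other HSP70 and HSP110 genes and 8 of 16 HSP90 co-chaperones, and library 3 for 10 of 14 genes of TRiC and prefoldin and 13 of 17 immediate early genes. Library 1 was highest for 5 of 8 other small heat shock protein genes and 8 of 13 other mitochondrial chaperone and protease genes. It was also highest for 8 of 18 other J-domain genes and 6 of 13 exchange factors and partners of HSP70. Over all tested genes library 1 was highest for 36.8%, library 2 for 28.7% and library 3 for 34.5%. Of the remaining 4 immediate early genes each was highest in library 2. The next 3 genes were named after their values were seen and were all highest in library 3. The immediate early gene egr1 had 5.09, 8.45 and 27.1 CPM in wild type and 8.20, 8.10 and 7.15 CPM in mutant (log2 fold change -0.78, SE 0.68, edgeR adjusted p = 0.605). The growth arrest gene btg2 had 1.79, 3.71 and 11.6 CPM in wild type and 3.96, 3.56 and 1.91 CPM in mutant. The HSP90 co-chaperone gene fkbp5, a known glucocorticoid target, had 5.63, 26.1 and 140 CPM in wild type and 209, 100 and 135 CPM in mutant (log2 fold change 1.38, SE 1.25, edgeR adjusted p = 0.629). The log2 fold change of fkbp5 was 3.23 without wild type library 3 (adjusted p = 0.141) and 0.82 without wild type library 1, and over all alternatives the adjusted p ran from 0.141 to 0.834.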
